A study of Mus musculus with 13 samples.

Results

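The cytosolic ribosomal protein genes of the mouse encode the proteins of the small and large ribosomal subunits that translate nuclear messages. They were taken as every gene with its own probe set whose symbol starts with Rpl or Rps and a digit, or is Rplp0, Rplp1, Rplp2 or Rpsa. Ribosomal S6 kinases, pseudogenes and Rps19bp1, a binding protein, were left out. The rule gave 62 of the 19938 genes measured by a probe set with 1 symbol, each read on its brightest such probe set. By symbol alone, 38 are named for the large and 24 for the small subunit. Of the 62, 54 are standard genes and 8 are paralogues or retrogenes (Rpl3l, Rpl7l1, Rpl10l, Rpl32l, Rpl39l, Rps4l, Rps23rg1 and Rps27l). RefSeq lists 88 protein-coding genes that meet the symbol rule, and 27 of them, Rpl3, Rpl11 and Rps27a among them, were not analysed here.

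The study used 13 Affymetrix Mouse Gene 1.0 ST arrays for RNA of small intestine from Apc mutant mice crossed with transgenic mice that express FPs, a term with no explanation in the labels. The groups were intestinal adenomas (n = 3), normal epithelium with high FP expression (FP-high, n = 4) and normal epithelium with low FP expression (FP-low, n = 6). Normal samples lay beside adenomas, so every group, FP-low included, carried the Apc mutation and the FP transgene, and no wild-type epithelium was compared. Glass capillaries served to pick crypts, and RNA came from each isolated crypt and was amplified before labelling, per the labels' protocols. Neither the driver of the transgene, nor the ages of the mice, nor the animal behind each array is given in the sources used here.

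Ribosomal proteins are made in near equal amounts, and their mRNAs are among the most abundant of a growing cell. Most start with a run of pyrimidines, the 5′ terminal oligopyrimidine or TOP motif, through which the kinase mTORC1 and the RNA-binding protein LARP1 set their translation. In the intestine, stem and transit cells of the crypt divide fast and make many ribosomes, while enterocytes that leave the crypt do not divide. Unassembled Rpl5 and Rpl11 bind Mdm2 and so stabilise p53. Loss of Apc activates Wnt signalling and its target Myc, a driver of ribosome production.

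Pyrimidine runs near the annotated starts of these genes were counted in promoter sequence. RefSeq promoter sequence of build GRCm38.p6, from 250 bases before to 50 bases after each start, was matched for 50 of the 62 genes. An unbroken run of at least 8 C or T on the gene's strand, within 50 bases either side of a start, was found for 39 of the 50 (78.0%), against 39.2% of 26975 other genes. The median longest run was 10 bases in the ribosomal protein genes and 7 in other genes. A C at the annotated start followed by at least 4 more C or T was present in 10 of the 50 (20%), against 2.98% of other genes. CCGGAA, the core that ETS family factors bind, lay on either strand of the whole window in 26 (52.0%), against 16.6%. TATAAA, the TATA box, was present in 6 (12%), against 15.7% on either strand. These are matches of letters, with no test. Windows of 30 bases around the longest run are shown for 8 genes whose expression is described in the paragraphs that follow, to set standard genes beside paralogues. They read 5′ to 3′ on the gene's strand, and capitals mark the run. Rps6, Rpl28 and Rplp2 hold it across the annotated start, Rpl5 before it and Rpl41 well after it:
Rps6 (chr4:86857349-86857378, minus strand): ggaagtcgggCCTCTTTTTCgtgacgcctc
Rpl28 (chr7:4792952-4792981, plus strand): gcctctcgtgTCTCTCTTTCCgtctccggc
Rplp2 (chr7:141447636-141447665, plus strand): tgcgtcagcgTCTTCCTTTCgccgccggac
Rpl5 (chr5:107900497-107900526, plus strand): gcctacagccaCTCTTTCTCacgtcgcttg
Rpl41 (chr10:128549119-128549148, minus strand): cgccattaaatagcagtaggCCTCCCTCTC
Rps27l (chr9:66946053-66946082, plus strand): ccccgcctccaCTCCTCTCCactcctcccc
Rpl7l1 (chr17:46782671-46782700, minus strand): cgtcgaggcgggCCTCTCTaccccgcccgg
Rpl10l (chr12:66284429-66284458, minus strand): tcagtctctatgaTTCCCgcaaggcttgat
The longest runs of Rps6, Rpl28, Rplp2 and Rpl41 were 10, 11, 10 and 10 bases, and those of Rpl7l1 and Rpl10l were 7 and 5 bases. Run length did not separate standard genes from copies. The copies Rpl32l and Rps23rg1 had runs of 10 bases, and the standard genes Rpl23 and Rps28 had 6 and 5. The run of Rpl41 reaches the end of the searched stretch, so it may be longer. Rps27l has 2 annotated starts, and the window of the one with the longer run, of 9 bases, is shown.

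The genes were read at very different brightness. Deposited values are log2 levels, and the levels of different probe sets cannot be ranked against each other. Between 45 and 50 of the 62 lay above a log2 level of 9 on each array except the one labelled FP-high replicate 1, where 24 did. That array stood apart over all probe sets: its values had an SD of 1.21, against 1.89 to 2.10 on the other 12, and its median correlation with the others was 0.762. The main results that use it are given with and without it. At the low end, Rpl39l and Rpl10l, paralogues known from testis, and Rpl3l, known from heart and skeletal muscle, had FP-low medians of 2.32, 4.30 and 3.37. The deposited table holds no detection call, so it is unknown whether such low values exceed background. Within the FP-low group the spread was small for most genes. The smallest SDs over the 6 arrays were those of Rps6, a substrate of S6 kinase (13.10 ± 0.07), Rpl23, a binder of Mdm2 (12.51 ± 0.08), Rps12 (13.04 ± 0.08) and Rpl8 (10.44 ± 0.09). The largest were those of Rpl14 (9.64 ± 0.57), the stalk protein Rplp1 (9.47 ± 0.48), Rpl12 (5.60 ± 0.46) and Rps2 (10.72 ± 0.45).

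**Figure D1:**
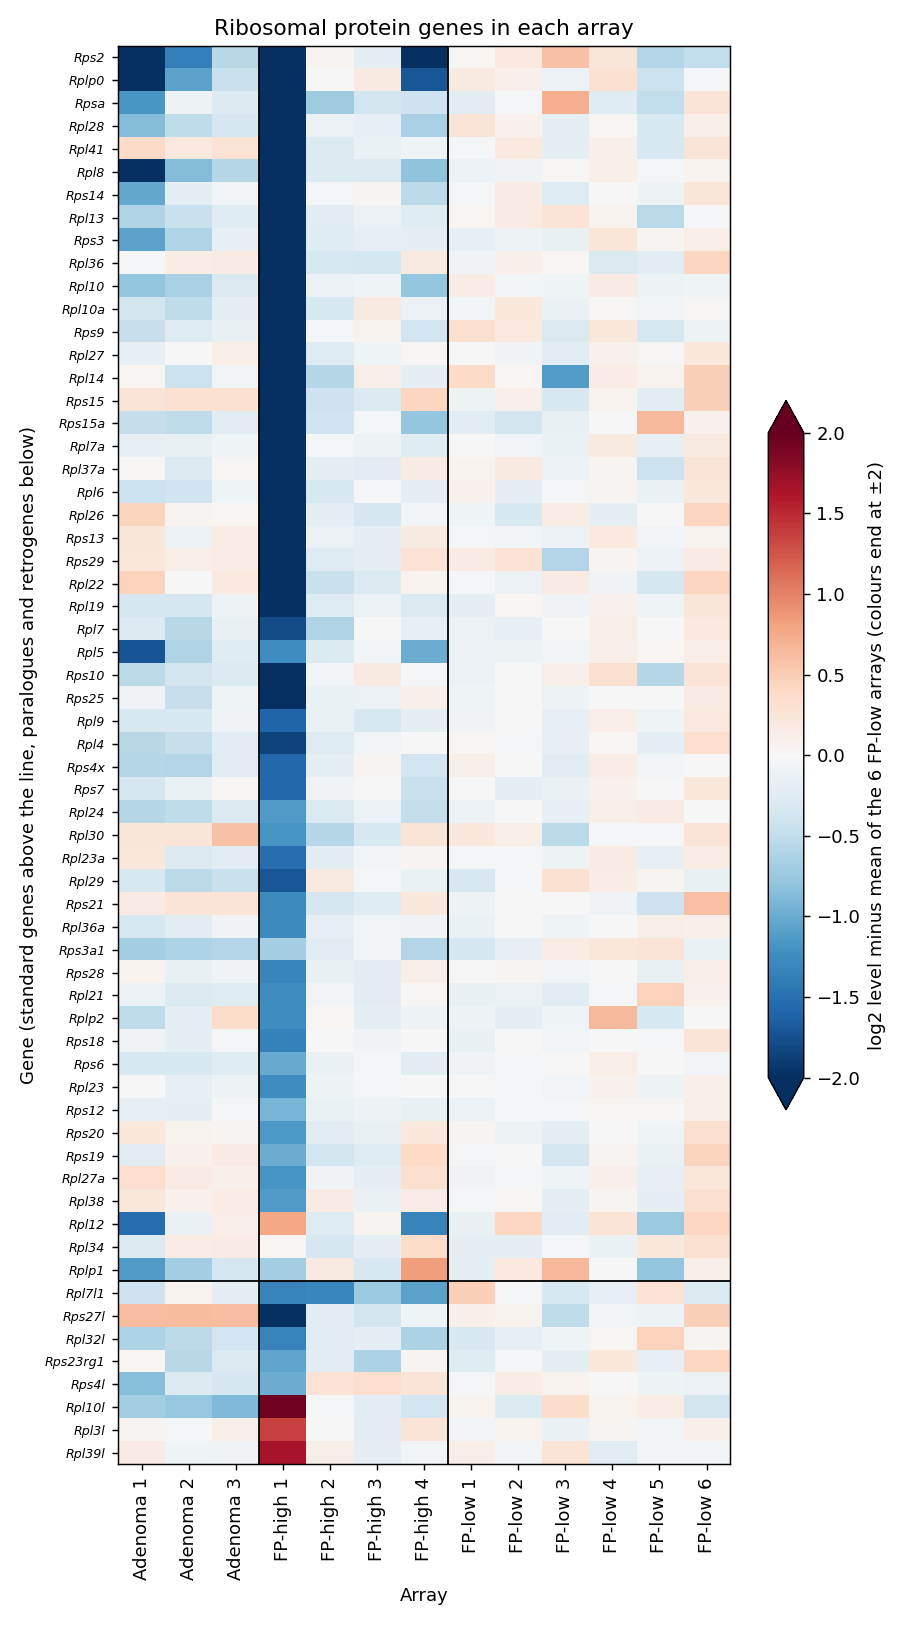
Heat map of the 62 ribosomal protein genes (rows) on the 13 arrays (columns), coloured by log2 level minus the mean of the 6 FP-low arrays, with standard genes above the line and paralogues and retrogenes below. FP-high replicate 1 is blue for 57 genes, with Rpl10l, Rpl39l, Rpl3l and Rpl12 red and Rpl34 at 0.04. Rps2 and Rplp0 are also low in adenoma replicates 1 and 2 and FP-high replicate 4.

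FP-high normal epithelium, set against FP-low normal epithelium, addresses the change before tumours that the series title names. Ribosomal protein genes lay lower on average in FP-high crypts, but no gene of the family passed the test. The mean was lower in FP-high for 58 of the 62 genes, where 43.7% of all probe sets tested were lower, with a median difference of -0.60 log2 against 0.05 over all probe sets. Leaving out FP-high replicate 1 brought the median to -0.15, against 0.02 over all, with 55 genes on the lower side, where 45.4% of all probe sets were. Of all 23410 probe sets tested, 18307 had an FP-low mean below 6, against 7 of the 62 genes. Values set out by brightness are in the next paragraph. The direction turned after cyclic loess normalization, with 37 genes higher, 25 lower and a median of 0.08. None of the 62 was called by limma at an adjusted p under 0.05, nor was any other probe set (percent called 0 in each direction). At an unadjusted p under 0.05, 13 genes were lower and 0 higher, where 7.95% and 4.78% of all probe sets were. Without FP-high replicate 1 these counts were 2 lower and 1 higher, against 4.84% and 3.69%. In bulk samples, fewer cells of a type and less RNA per cell cannot be told apart.

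Per array, the median gene of the family deviated from the FP-low mean by -1.66, -0.20, -0.14 and -0.09 log2 in FP-high replicates 1 to 4. On the 6 FP-low arrays the deviations ran between -0.11 and 0.15. The first FP-high array lay far below every other, replicates 2 and 3 were below the lowest FP-low array, and replicate 4 lay among the FP-low arrays. On FP-high replicate 1, 52 of 62 genes (83.9%) were more than 1 log2 unit below the FP-low mean. The same was true of 23% of all probe sets tested on that array and of 94.8% of those with an FP-low mean above 9. Its deviation ran with brightness: for FP-low means from 9 to 11, the median was -2.76 over 12 family genes and -2.92 over all probe sets. For means from 11 to 12 it was -2.68 over 24 family genes and -1.91 over all probe sets. For 14 genes at 12 and above it was -1.34 in the family and -1.32 over all. Bright probe sets of other genes were low on that array too, and from 11 to 12 the family lay below them. Medians of bright probe sets also lay below 0 on FP-high replicates 2, 3 and 4. From 11 to 12 they were -0.22, -0.13 and -0.14 in the family and -0.10, -0.09 and -0.23 over all probe sets. At 12 and above they were -0.14, -0.05 and 0.01 in the family and -0.13, -0.07 and -0.08 over all.

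**Figure D2:**
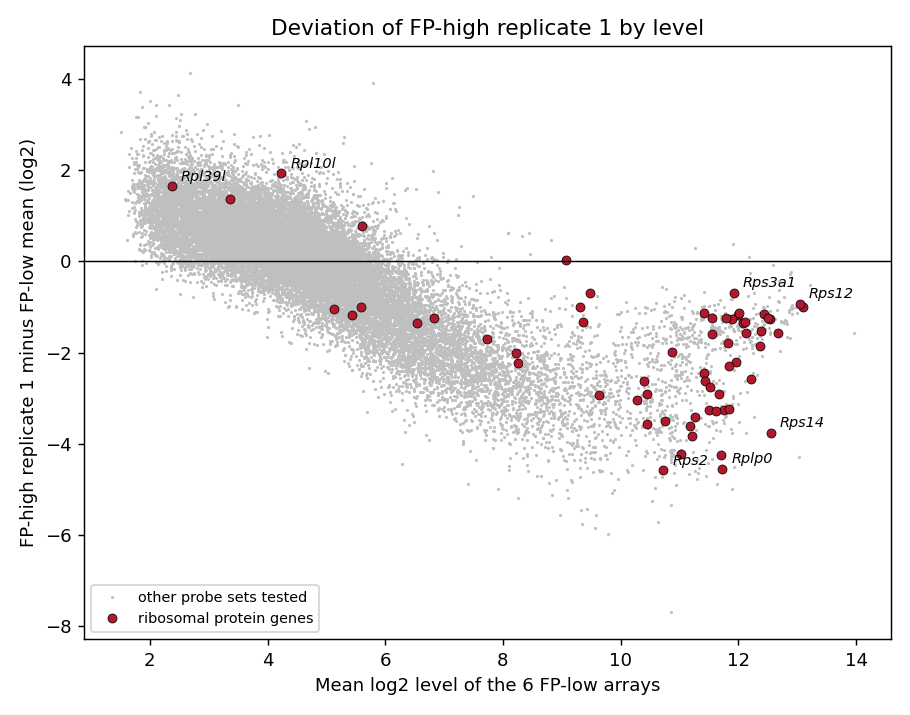
Deviation of FP-high replicate 1 from the FP-low mean (y axis, log2) against the mean log2 level of the 6 FP-low arrays (x axis), with ribosomal protein genes in red over all other probe sets tested in grey. Dim probe sets lie above 0 and bright ones below, and the family follows the same shape, with Rps2 and Rplp0 at -4.58 and -4.55.

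Among large-subunit genes, Rpl7l1, a paralogue of Rpl7 that acts in ribosome assembly, had the smallest adjusted p of the family in this comparison. Its log2 levels were 5.20, 5.24, 5.81 and 5.47 in FP-high crypts. The FP-low arrays ran from 6.25 to 7.03 with a median of 6.45. All 4 FP-high values were below all 6 FP-low values, a difference of -1.12 ± 0.19 (SE) with an adjusted p of 0.122, and of -1.04 ± 0.20 with an adjusted p of 0.170 without FP-high replicate 1. The adjusted p was 0.027 when FP-high replicate 3 was left out, a setting that called 6 probe sets higher and 130 lower in all. Rpl7 itself averaged 11.19 ± 0.80 in FP-high and 11.83 ± 0.14 in FP-low (SD), with an adjusted p of 0.390 from limma. Rpl8, which lies near the peptidyl transferase centre, had levels of 7.54, 10.17, 10.15 and 9.63 in FP-high, against 10.33 to 10.56 (median 10.43) in FP-low. These groups did not overlap either, with a difference of -1.07 ± 0.46 and an adjusted p of 0.390. Rpl7l1 and Rpl8 were the 2 genes of 62 without overlap on the lower side, where 1.51% of all probe sets had none, and 0 genes lacked overlap on the higher side, where 0.743% did.

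**Figure D3:**
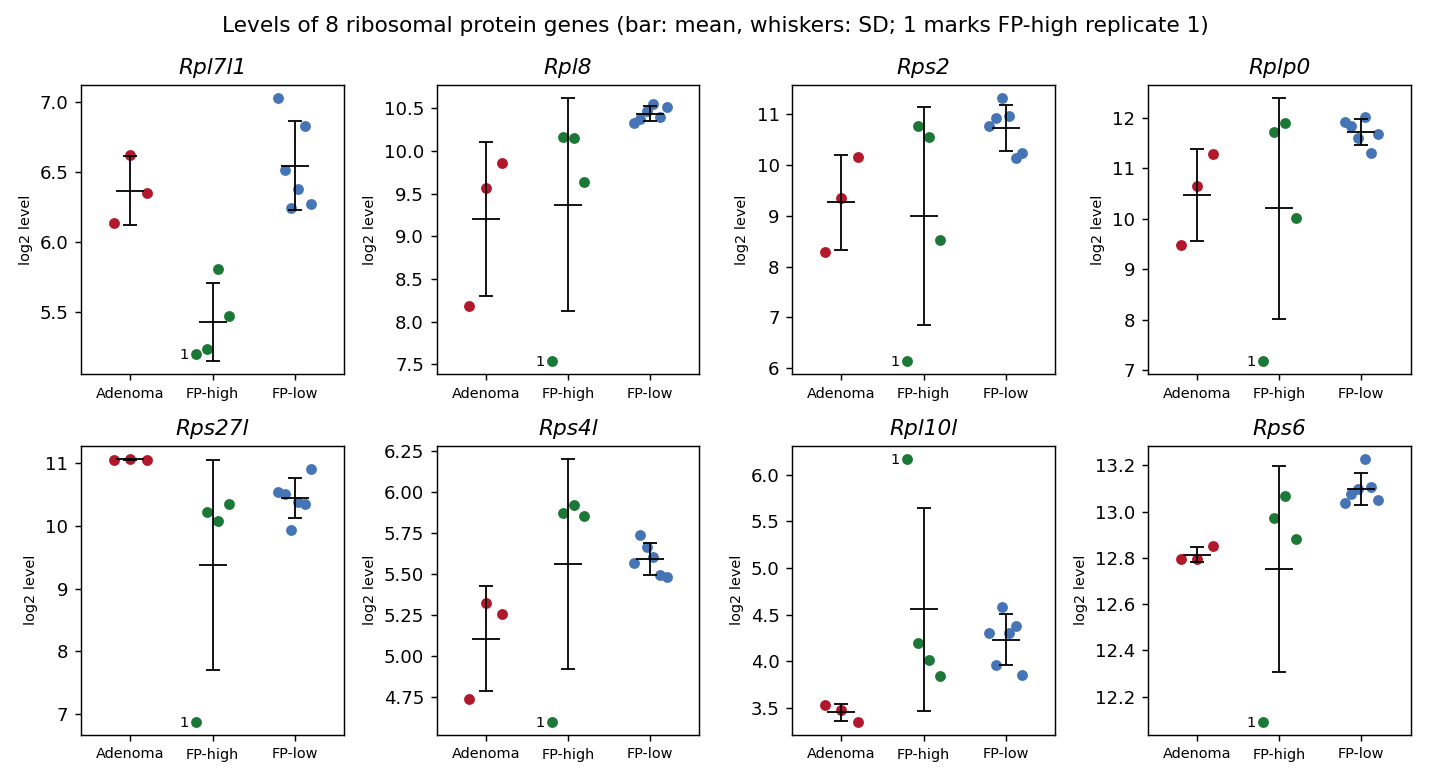
Log2 levels of 8 ribosomal protein genes on each array (points), with the mean and SD of each group in adenoma (n = 3), FP-high (n = 4) and FP-low (n = 6) samples, and FP-high replicate 1 marked 1. Rpl7l1 is lower in all 4 FP-high samples than in all FP-low samples, and Rps27l is highest in the 3 adenomas. In the remaining panels the spread of the FP-high group rests largely on replicate 1, and for Rps2 and Rplp0 on replicate 4 as well.

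The lowest differences were those of Rps2, a small-subunit protein of the mRNA entry site, of Rplp0, the base of the ribosomal stalk, and of Rpsa, the laminin receptor homologue. Rps2 measured 6.15, 10.77, 10.54 and 8.52 in FP-high, against 10.14 to 11.31 (median 10.84) in FP-low. Rplp0 measured 7.18, 11.73, 11.90 and 10.02 in FP-high, against 11.30 to 12.03 (median 11.76) in FP-low. In both genes FP-high replicates 1 and 4 were below every FP-low array and replicates 2 and 3 lay among them. The differences were -1.73 ± 0.74 for Rps2 and -1.52 ± 0.74 for Rplp0 (adjusted p of 0.390 and 0.392 from limma), and -0.78 ± 0.50 and -0.51 ± 0.43 without FP-high replicate 1. Rpsa (-1.43 ± 0.63), Rpl28 (-1.19 ± 0.58) and Rpl41 (-1.19 ± 0.65) followed, and without that array they differed by -0.50, -0.31 and -0.17. Rplp1, which forms the stalk with Rplp2 on Rplp0, differed by 0.00 ± 0.31 and Rplp2 by -0.37 ± 0.27, so the 3 stalk genes did not share 1 value.

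At the other end stood Rpl39l (0.39 ± 0.29), Rpl3l (0.35 ± 0.24) and Rpl10l (0.33 ± 0.37), the dim paralogues. Without FP-high replicate 1 the differences were -0.04, 0.01 and -0.21. Rpl34 (-0.03 ± 0.17) and Rps4l (-0.03 ± 0.24) lay near 0. Rps4l had levels of 5.87, 5.92 and 5.85 in FP-high replicates 2, 3 and 4, above all 6 FP-low values of 5.48 to 5.74, while replicate 1 measured 4.60. The other probe set of Rps4l differed by -0.06, and by -0.10 without that array. Rps4l was the 1 gene without overlap on the higher side once that array was left out, where 1.39% of all probe sets were, and Rpl7l1 and Rpl8 remained without overlap on the lower side, where 1.81% were. By subunit, the medians over standard genes were -0.64 for 33 large-subunit and -0.61 for 21 small-subunit genes, and -0.17 and -0.12 without FP-high replicate 1. The mean was lower in FP-high for 21 of 21 standard small-subunit genes, or 20 of 21 without that array.

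**Figure D4:**
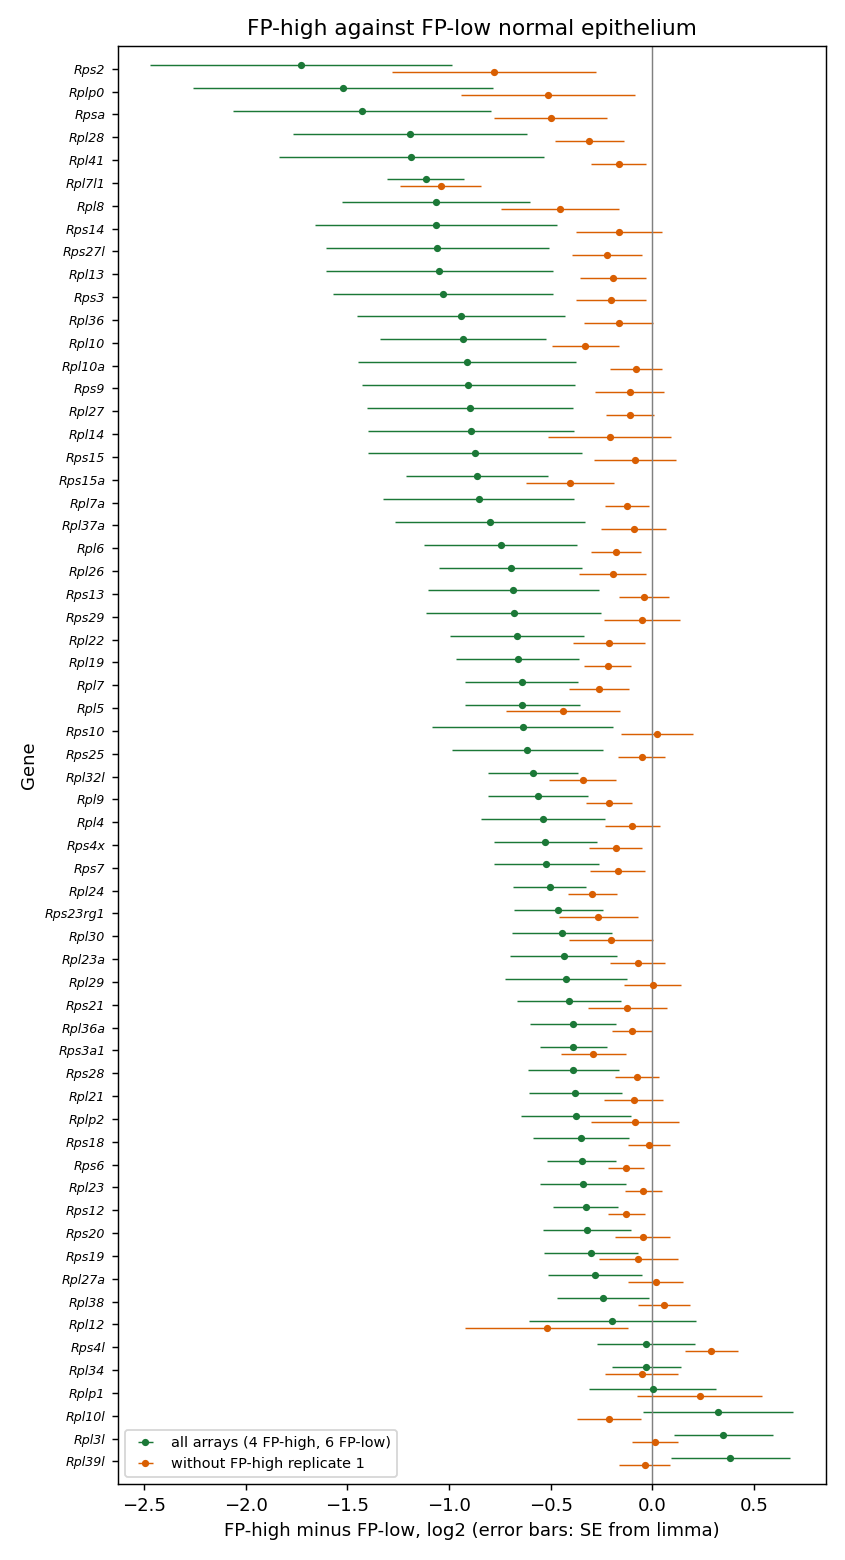
FP-high minus FP-low difference in mean log2 level (x axis, error bars SE from limma) of the 62 genes, sorted by the value with all arrays (green), beside the value without FP-high replicate 1 (orange). Most orange points lie nearer 0 than the green ones, while Rpl7l1 stays at -1.04.

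Markers of other states moved with this comparison, and their part in it was not tested. All 17 measured dividing-cell markers had a lower mean in FP-high than in FP-low (median -1.05, and -0.95 without FP-high replicate 1). The mean level of that list ran from 5.45 to 6.69 on FP-high arrays and from 6.82 to 7.33 on FP-low arrays. All 14 enterocyte markers had a higher mean (median 0.83, and 1.45 without that array), with list means of 6.65 to 10.54 on FP-high and 6.66 to 9.01 on FP-low arrays. The 12 stem cell markers were all lower (median -0.41), or 10 of 12 without that array (-0.26). Epithelial markers were lower in 9 of 12 (median -0.43, and 6 of 12 with -0.02 without that array), with list means of 6.62 to 9.01 in FP-high and 8.21 to 8.94 in FP-low. Paneth cell markers were lower in 7 of 7 (median -1.29, and 6 of 7 with -0.36), with list means of 6.66 to 10.14 on FP-high and 9.24 to 10.42 on FP-low arrays. Goblet cell markers were lower in 7 of 9 (median -0.61, and 3 of 9 with 0.02), with list means of 5.67 to 9.65 on FP-high and 8.42 to 9.25 on FP-low arrays. The lowest FP-high value of these 3 lists was that of replicate 1. T cell markers, which intraepithelial lymphocytes carry, were higher in 9 of 10 (median 0.24, and 8 of 10 with 0.33), with list means of 4.67 to 5.68 on FP-high and 4.03 to 5.10 on FP-low arrays. A median above 0 was not particular to T cells. Medians were 0.13 for B and plasma cells, 0.12 for macrophages and neutrophils, and 0.13 for fibroblasts and smooth muscle. Endothelium and red blood cells had 0.18 and 0.13, where the median over all probe sets was 0.05. No marker of these lists was called between FP-high and FP-low.

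Adenomas were next set against FP-low epithelium. The family as a whole lay slightly lower in adenomas, and again no gene passed the test. The mean was lower for 45 of the 62 genes, where 61% of all probe sets tested were, with a median of -0.21 log2 against -0.06. The family's median was -0.09 after quantile normalization, against -0.10 over all probe sets, and -0.07 after cyclic loess, against -0.02. With the replicate number as a block it was -0.10, against -0.06. None of the 62 was called, while 0.534% of all probe sets were called higher and 0.0171% lower in adenomas. At an unadjusted p under 0.05 the counts were 4 lower and 0 higher, where 3.2% and 4.24% of all were. FP-high replicate 1 enters these tests through the shared spread. Without it, 1 of the 62 genes, Rpl10l, was called lower. Calls over all probe sets then numbered 250 higher and 120 lower, against 125 and 4 with all arrays. The p-values of this comparison thus depend on that array. The median deviation from the FP-low mean was -0.30, -0.26 and -0.09 in adenoma replicates 1, 2 and 3, so the third lay within the FP-low range of -0.11 to 0.15 and the other 2 below it.

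The 3 adenoma values were below all 6 FP-low values for 14 of the 62 genes, against 5.64% of all probe sets, and above them for 1, against 3.67%. The 14 were Rpl4, Rpl5, Rpl8, Rpl10, Rpl10a, Rpl10l, Rpl24, Rpl28, Rpl32l, Rplp0, Rps3a1, Rps4l, Rps4x and Rps6. Of these, Rpl4, Rpl10a, Rpl24, Rpl32l and Rps3a1 are named after their values were seen. Rps3a1 had the smallest adjusted p, with levels of 11.25, 11.31 and 11.34 in adenomas, against 11.58 to 12.20 (median 11.93) in FP-low. Its difference was -0.62 ± 0.18 with an adjusted p of 0.240. Rps6 measured 12.80, 12.80 and 12.85 in adenomas, against 13.04 to 13.23 (median 13.09) in FP-low. The difference, -0.29 ± 0.19, was small beside that of other genes but the groups did not overlap (adjusted p of 0.846 from limma).

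Larger and less even differences came from a few genes that were very low in adenoma replicate 1. Rps2 measured 8.29, 9.34 and 10.16 in adenomas, against 10.14 to 11.31 in FP-low, a difference of -1.46 ± 0.81. Rplp0 measured 9.49, 10.66 and 11.28 in adenomas, against 11.30 to 12.03 in FP-low, a difference of -1.25 ± 0.81. Rpl8 measured 8.18, 9.57 and 9.86 in adenomas, against 10.33 to 10.56 in FP-low, a difference of -1.24 ± 0.51 (adjusted p of 0.578 from limma). In these 3 genes replicate 1 was the lowest adenoma and replicate 3 the highest. Rpl5, which carries 5S rRNA and binds Mdm2, followed the same order with 10.06, 11.19 and 11.55, against 11.67 to 11.92 in FP-low, and a difference of -0.85 ± 0.31 (adjusted p of 0.473). Rplp1 differed by -0.72 ± 0.34, with values that overlapped those of FP-low. On adenoma replicate 1, 9 genes of the family (14.5%) lay more than 1 log2 unit below the FP-low mean, against 3.37% of all probe sets and 21.9% of those with an FP-low mean above 9. Replicate 2 had 2 such genes, Rps2 and Rplp0, and replicate 3 had 0.

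Rps27l, a p53-inducible paralogue of Rps27 that binds Mdm2, was the gene without overlap on the higher side. Its levels were 11.06, 11.07 and 11.06 in adenomas, against 9.94 to 10.92 (median 10.45) in FP-low. The difference was 0.62 ± 0.60 with an adjusted p of 0.952, and an adjusted p of 0.101 when FP-high replicate 1, whose Rps27l level was 6.88, was left out. The next highest differences were those of Rpl30 (0.36 ± 0.27), Rps15 (0.29 ± 0.58), Rpl41 (0.29 ± 0.72), Rps21 (0.24 ± 0.28) and Rpl22 (0.22 ± 0.36), and all of their groups overlapped. Rpl10l lay at 3.53, 3.48 and 3.35 in adenomas, against 3.86 to 4.59 (median 4.30) in FP-low, a difference of -0.78 ± 0.41. Its adjusted p was 0.740 on all arrays and 0.0321 without FP-high replicate 1, so the call depends on that array, which enters this contrast through the shared spread.

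**Figure D5:**
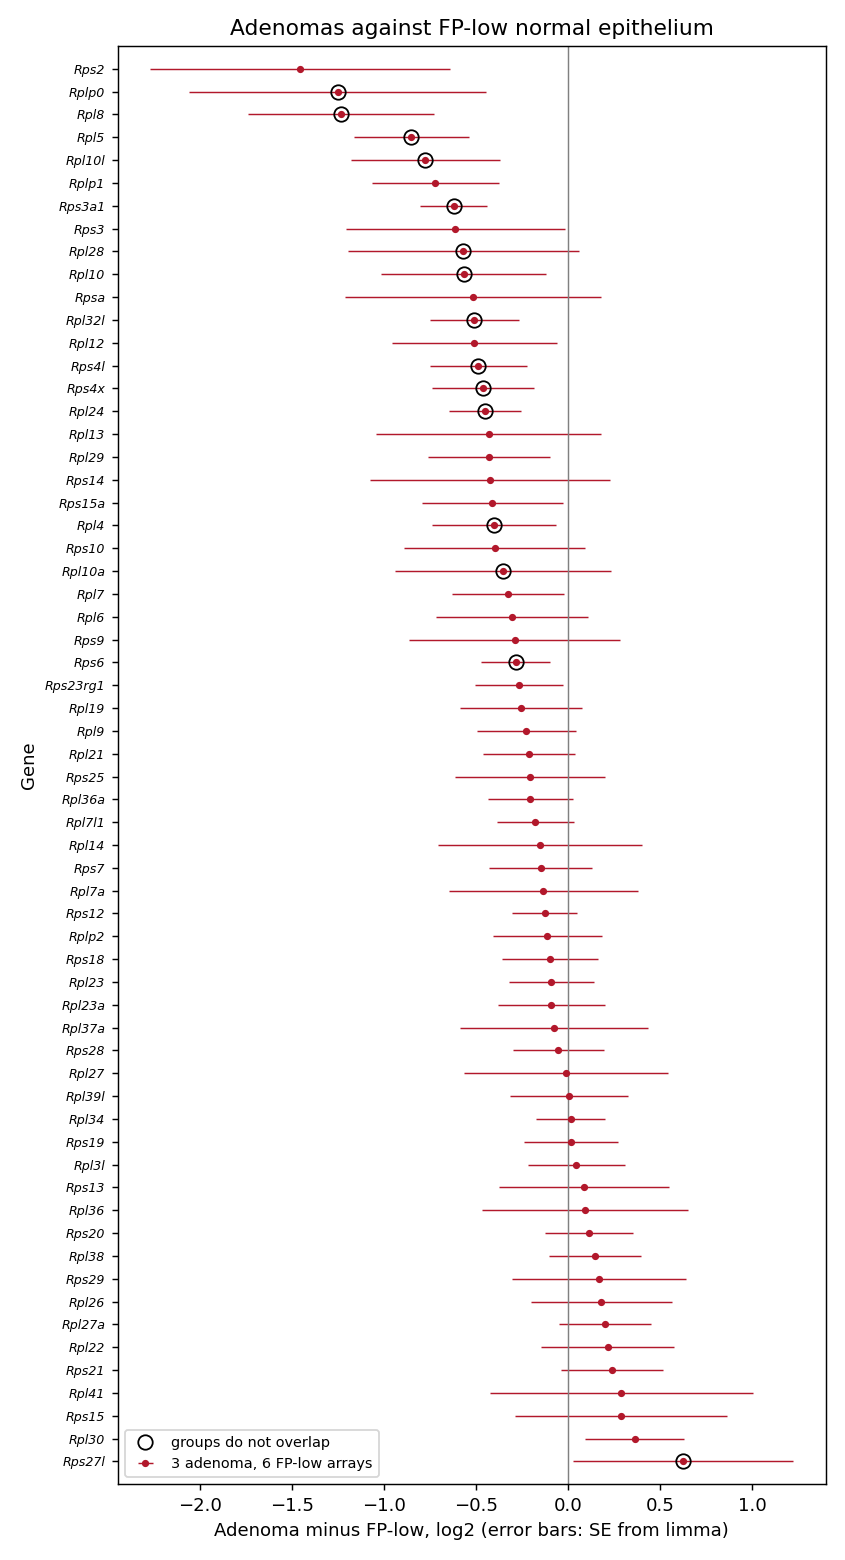
Adenoma minus FP-low difference in mean log2 level (x axis, error bars SE from limma) of the 62 genes, sorted by value, with a ring around genes whose 3 adenoma and 6 FP-low values do not overlap. Rings mark 14 genes on the lower side, with Rplp0, Rpl8 and Rpl5 the lowest of them, and Rps27l alone on the higher side.

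X-linked Rpl10, Rps4x and Rpl36a were lower in adenomas than in FP-low by -0.57 ± 0.45, -0.46 ± 0.28 and -0.21 ± 0.23, none called. Adenoma arrays also differed from FP-low arrays in sex-linked markers, of which 3 Y-linked genes were lower (Kdm5d by -1.69) and Xist higher by 5.45, with 0 of the 4 called, and the part of this in the X-linked values was not tested. Of the genes mutated in human Diamond-Blackfan anaemia, 4 that were measured were listed here, and the list is not complete. These, Rpl5, Rps7, Rps10 and Rps19, differed by -0.85, -0.15, -0.40 and 0.02. Among markers of other cells, Dcn of fibroblasts was called higher in adenomas (2.46 ± 0.48, adjusted p of 0.0410 from limma). It was the only called gene among the 10 fibroblast and smooth muscle markers, of which 4 were higher and 6 lower (median -0.05). List means over the 10, Dcn included, ran from 4.42 to 5.06 on adenoma and from 4.28 to 4.67 on FP-low arrays. Paneth cell markers were lower in 5 of 7 (median -1.07) and dividing-cell markers in 16 of 17 (median -0.36), with 0 called in each, and their part in the family's values was not tested.

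Between adenomas and FP-high epithelium, the sign of the family depended on FP-high replicate 1. With all arrays, 52 of 62 genes were higher in adenomas and 10 lower, where 59.6% of all probe sets were lower (median 0.35, against -0.11 over all). Without that array 24 were higher and 38 lower, where 62.5% of all were lower, and the median was -0.02 against -0.08 over all. None of the 62 was called with all arrays, where 0.748% of all probe sets were called higher and 0.0171% lower. Without FP-high replicate 1, Rps4l, a paralogue of Rps4x, was the 1 gene called, lower in adenomas, where 0.192% of all probe sets were called lower and 0.91% higher. At an unadjusted p under 0.05, 4 genes were higher and 1 lower with all arrays, where 8.38% and 7.36% of all probe sets were. The counts without FP-high replicate 1 were 4 higher and 5 lower, where 7.35% and 8.69% were. Markers of stem and dividing cells were also read, and their part was not tested. Of 12 stem cell markers, 10 were higher in adenomas (median 0.31), or 7 without FP-high replicate 1 (median 0.18). Their differences reached down to -2.06, and to -2.92 without that array. Lgr5, a receptor of crypt stem cells, was called higher in adenomas (2.0 ± 0.39, adjusted p of 0.0327 from limma), but not without that array (1.80, adjusted p of 0.0520). Dividing-cell markers were higher in 15 of 17 (median 0.84, and 0.46 without that array). Enterocyte markers were lower in 11 of 14 (median -0.94, and -1.49). This comparison and the one with FP-low share the adenoma arrays, and both comparisons of FP-high share its arrays.

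Rps4l measured 4.73, 5.32 and 5.26 in adenomas, against 4.60, 5.87, 5.92 and 5.85 in FP-high. Without the first FP-high array the groups did not overlap, with a difference of -0.78 ± 0.15 and an adjusted p of 0.0326. With it the difference was -0.46 ± 0.28 (adjusted p of 0.394). The other probe set of Rps4l differed by -0.52, and by -0.47 without that array. Rpl7l1 measured 6.14, 6.62 and 6.35 in adenomas, against 5.20, 5.24, 5.81 and 5.47 in FP-high. All adenoma values were above all FP-high values, with a difference of 0.94 ± 0.23 and an adjusted p of 0.0866, the smallest of the family. Set against FP-low, adenomas differed by -0.18 ± 0.21 in this gene. Rps27l was higher in adenomas than in all FP-high arrays, whose other 3 values were 10.23, 10.08 and 10.35, with a difference of 1.68 ± 0.65 (adjusted p of 0.262) and 0.85 ± 0.20 without replicate 1 (0.0682). The groups did not overlap for 4 genes higher in adenomas (Rpl7l1, Rps27l, Rpl26 and Rpl41), against 6.74% of all probe sets, and for 1 lower (Rpl10l), against 10.4%. Without FP-high replicate 1 there were 4 on the higher side, against 8.3%, and 7 on the lower side, against 15.6%.

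Other probe sets of the same genes gave the same signs in most cases. Of the 62 genes, 23 had 1 probe set with a single symbol and 39 had several, up to 14 for Rps12. Over the 156 further probe sets of those 39 genes, 155 had the sign of the brightest one in FP-high minus FP-low, 152 in adenoma minus FP-low and 147 in adenoma minus FP-high, and 0 were called. Without FP-high replicate 1 the counts were 142 in FP-high minus FP-low and 138 in adenoma minus FP-high. They share arrays and often near-identical sequence, so they are not replicates. For 11 genes, Rps2, Rpl41 and Rpl12 among them, a brighter probe set was shared with another symbol, and processed pseudogenes are common in this family, so the signal of copies cannot be told apart from the gene's own. The 51 other genes gave medians of -0.61, -0.21 and 0.36 in the 3 comparisons, close to those of all 62, and -0.13 and -0.04 in the comparisons of FP-high without its replicate 1.

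Neighbouring steps of translation were read on lists written with earlier results of these data known. In FP-high against FP-low, 22 of 22 other TOP mRNAs and their companions were lower (median -0.85, and -0.23 without FP-high replicate 1), with Snhg5, a host RNA of small nucleolar RNAs, at -1.85 ± 0.35 (-1.36 without that array). Translation initiation and elongation factors were lower in 27 of 28 (median -0.72, and -0.23 without that array). Ribosome assembly factors were lower in 33 of 37 (-0.64, and -0.31), with differences down to -2.04. Wdr75 of the small-subunit processome, at -1.52 ± 0.25, or -1.26 without that array, had the smallest adjusted p of that list (0.118 from limma). Mitochondrial ribosomal proteins, a separate set of 77 genes, were lower in 72 (-0.48, and -0.16). No gene of these lists was called in that comparison. The 23 mTORC1 and LARP1 genes split 13 lower to 10 higher (-0.14), the 20 ribosome quality control genes 16 to 4 (-0.26), and the 18 Myc and growth genes 14 to 4 (-0.56), Myc itself at -0.99 ± 0.33 (-0.59 without FP-high replicate 1). The 15 genes of the Mdm2 and p53 branch split 7 lower to 8 higher (0.03). Without that array, 19 of 22 TOP mRNAs, 25 of 28 translation factors, 28 of 37 assembly factors and 53 of 77 mitochondrial ribosomal proteins were lower. The mTORC1 and LARP1 list then split 13 lower to 10 higher (-0.03), quality control 11 to 9 (-0.04), Myc and growth 13 to 5 (-0.23), and the Mdm2 and p53 branch 8 to 7 (-0.03).

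In adenomas against FP-low the same lists lay nearer 0. The medians were -0.23 for TOP mRNAs (20 of 22 lower), -0.17 for translation factors (18 of 28), -0.16 for assembly factors (27 of 37) and -0.18 for mitochondrial ribosomal proteins (57 of 77), and 0 genes were called in each. Medians for mTORC1 and LARP1, quality control, Myc and growth, and the Mdm2 and p53 branch were -0.15, -0.07, -0.11 and -0.04, also with 0 called. The Mdm2 and p53 branch split 8 lower to 7 higher. At an unadjusted p under 0.05 from limma, 2 were lower and 1 higher, where 3.2% and 4.24% of all probe sets were. Mdm2 itself was higher in adenomas by 0.66 ± 0.22 (adjusted p of 0.407 from limma). Against FP-high, 2 listed genes were called higher in adenomas: Nap1l1, a nucleosome assembly protein with a TOP mRNA (1.28 ± 0.23, adjusted p of 0.0239), and Wdr75 (1.61 ± 0.30, adjusted p of 0.0261). Without FP-high replicate 1 the differences were 1.23 and 1.34 (adjusted p of 0.0365 and 0.0198 from limma).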

How the data were processed

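The deposited values are log2 levels, 35556 probe sets on each of 13 arrays, which the authors made with the Affymetrix Command, Expression and Transcriptome Analysis Consoles, per the design text and the submitters' processing notes. For background correction, normalization and software versions, nothing is stated in the labels. The range of the values gave the log2 scale, and 0 columns were left out. Arrays, not cells, are the replicates, and since the labels do not tie arrays to animals, p-values measure the spread between samples, which may be technical; the number of arrays limits the precision.

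Probe sets were named from the platform annotation. The 23410 with a symbol were fitted with limma 3.58.1 in R 4.3.3 (lmFit and eBayes, two-sided, 3 groups, no covariate or filter), with Benjamini-Hochberg adjustment over all of them and calls at adjusted p under 0.05. The fit was tested on simulated data. Errors on levels are SDs, and those on differences are SEs. Groups without overlap are those whose ranges do not meet.

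Members, lists and tests were chosen with earlier results of these data known. Named genes were those called, the 6 lowest and 6 highest differences of each comparison, the 4 largest and 4 smallest FP-low SDs, and role lists; from pathway lists, those called or the 2 with the smallest p. The labels share replicate numbers. Deviations of same-numbered FP-high and adenoma arrays correlated at 0.233, 0.102 and 0.220, over the bound of 0.1 set for pairs. Same-numbered arrays with FP-low ran from -0.361 to 0.178. Arrays of different numbers were not correlated for comparison, so these values cannot show pairing. The replicate number as a block changed no call among the 62 genes. Alternatives were 2 normalizations, array weights, the block, other probe set choices and leaving out each array; leaving out FP-high replicate 1 with quantile normalization, and leaving out genes with a brighter shared probe set, were chosen after seeing the data.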

Additional observations from a re-analysis of the deposited data

Results flagged for a closer look

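On the array labelled FP-high replicate 1, the median deviation of the 62 genes from the FP-low mean was -1.66 log2, far from the other 3 of its group. Among the genes named by rule, 12 had a level there that stood far from the rest of the FP-high group. The levels were 6.17 for Rpl10l and 4.03 for Rpl39l, both above the other FP-high arrays. They were 11.3 for Rpl23, 7.38 for Rpl28, 8.23 for Rpl36, 11.3 for Rpl36a, 7.45 for Rpl41, 7.76 for Rps10, 12.1 for Rps12, 6.88 for Rps27l, 4.60 for Rps4l and 6.80 for Rpsa, all below the other FP-high arrays. Over all 62 genes the same array stood apart for 29. In the FP-low group, Rpl14 was far below the others in replicate 3 (8.52), and Rplp2 (7.48) and Rps6 (13.2) were far above the others in replicate 4. By chance about 1 in 20 groups would hold such a value. The other values of these genes and the spread of that array stand in the report, and no cause was tested.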

How the results depend on the processing

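The sign of FP-high minus FP-low turned under cyclic loess, and that of adenoma minus FP-high turned under cyclic loess, with array weights and without FP-high replicate 1. The median of the family in FP-high minus FP-low was -0.60, and it was -0.17 after quantile normalization, 0.083 after cyclic loess, -0.22 with array weights and -0.091 without FP-high replicate 1 and with quantile normalization. In adenoma minus FP-low it was -0.21, and -0.094, -0.069, -0.26 and -0.091 under the same 4 settings, where quantile normalization put all probe sets at -0.096. In adenoma minus FP-high it was 0.35, and 0.065, -0.18, -0.016 and 0.015. Leaving out each array gave -0.75 to -0.15, -0.27 to -0.18, and -0.024 to 0.52 in the same order of comparisons, with 0 to 1 genes called in each. With the replicate number as a block the medians were -0.55, -0.10 and 0.44, and 0 genes were called in each comparison. In adenoma minus FP-low, cyclic loess called 1 (Rpl8), array weights 5 (Rpl8, Rpl10l, Rpl24, Rps3a1 and Rps4x) and FP-high replicate 1 left out with quantile normalization 1 (Rpl10l). With array weights 511 probe sets in all were called higher and 357 lower in adenoma minus FP-low, against 125 and 4. Under cyclic loess these counts were 255 and 80, and without FP-high replicate 1 and with quantile normalization 245 and 163. In adenoma minus FP-high the settings called 1 (Rps27l), 2 (Rpl7l1 and Rps4l) and 1 (Rps4l). Over all probe sets they called 303 higher and 48 lower, 436 and 158, and 217 and 124, against 175 and 4 in the main fit. Rpl7l1 was called without FP-high replicate 3 in FP-high minus FP-low (-1.24, adjusted p of 0.027) and in adenoma minus FP-high (1.06, adjusted p of 0.049). Over all probe sets, that setting called 6 higher and 130 lower in FP-high minus FP-low, and 265 and 16 in adenoma minus FP-high. The signs of 33 genes changed under cyclic loess in FP-high minus FP-low. The cause of these changes was not tested. All rows of the table, probe sets above the median level (59 genes left) and the mean of all probe sets each kept 0 calls and the sign of every median. The same held without paralogues (56 genes left, with the retrogenes Rpl32l and Rps23rg1 kept in) and without genes that have a brighter shared probe set.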
